A study of Mus musculus with 12 samples.

Results

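Transcripts of most of 10 thymic epithelial and stromal genes were low in NPM-ALK lymphomas. All 10 were present in thymi of NPM-ALK mice with Dnmt1 deleted in T cells. The genes were 10 of the 50600 gene IDs in the count tables, chosen by symbol as a read of the non-lymphoid cells of the thymus: Foxn1, Aire, Psmb11, Prss16, Ccl25, Dll4, Cxcl12, Krt5, Krt8 and Epcam. All 10 had enough reads to be tested. In ALK tumors 8 of the 10 were called lower than in control thymus, beside 12% of all genes tested (20.4% in either direction), with Psmb11 and Prss16 at 0.209% and 0.219% of the control mean, while Krt5 and Epcam, which differed widely between tumors, were not called. Other stromal genes did not fall as a whole: of 20 mesenchymal and fibroblast genes 5 were called higher and 1 lower in ALK. Of 14 endothelial genes tested 0 were called, and of all genes 8.41% were called higher. In the other comparisons with control thymus none of the 10 was called. In NPM-ALK thymi with Dnmt1 deleted, 5 of the 10 lay below all control libraries, as did 7.56% of all genes.

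RNA was sequenced from 3 mice in each of 4 groups. Ctrl mice were DNMT1 fl/fl without Cre and were 20, 21 and 25 weeks old. KO mice were DNMT1 fl/fl CD4-CRE, aged 20 to 21 weeks. ALK mice were NPM-ALK+, aged 22, 24 and 31 weeks, and gave T cell lymphoma cells, and no floxed Dnmt1 allele is given for them. ALKKO mice carried NPM-ALK+ with DNMT1 fl/fl CD4-CRE, were 19, 21 and 25 weeks old and, like Ctrl and KO mice, are labelled as thymocytes. All were male except the mouse of KO2, the library of KO replicate 2, and libraries are named by group and replicate in the same way below. Both the transgene and Cre are driven from Cd4 elements, which act in T cells, so NPM-ALK and the deletion of Dnmt1 were directed to T cells and not to the stroma whose transcripts are described here.

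The thymic stroma is the scaffold in which T cells are made. Cortical epithelial cells draw progenitors in with chemokines, commit them to the T lineage through a Notch ligand and display peptides for positive selection. Medullary epithelial cells express tissue-restricted antigens for negative selection. FOXN1 is the transcription factor on which the differentiation and upkeep of both compartments depend, and its loss leaves a thymus without T cells, as in nude mice. Epithelial cells are a small minority of a thymus, so their transcripts are diluted by those of thymocytes, and in bulk RNA fewer epithelial cells and less RNA per epithelial cell cannot be told apart.

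FOXN1 binds DNA with the core GACGC, and promoters of Psmb11, Ccl25 and Dll4, which stand for peptide processing and for the ligands in the results below, are shown to let the reader see where these letters lie. They are RefSeq windows on GRCm38.p6 from 250 bases before to 50 bases after an annotated start, printed 5′ to 3′ on the strand of the gene, with GACGC or its reverse complement GCGTC in capitals. Psmb11 is at chr14:54625060-54625359 (plus strand), the upstream start of Ccl25 at chr8:4324960-4325259 (plus strand) and Dll4 at chr2:119325534-119325833 (plus strand).
Psmb11: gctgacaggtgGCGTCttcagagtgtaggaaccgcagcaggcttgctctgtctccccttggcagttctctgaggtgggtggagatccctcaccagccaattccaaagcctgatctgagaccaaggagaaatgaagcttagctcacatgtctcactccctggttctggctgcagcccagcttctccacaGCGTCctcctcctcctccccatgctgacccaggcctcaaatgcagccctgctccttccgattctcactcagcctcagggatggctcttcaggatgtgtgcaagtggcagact
Ccl25: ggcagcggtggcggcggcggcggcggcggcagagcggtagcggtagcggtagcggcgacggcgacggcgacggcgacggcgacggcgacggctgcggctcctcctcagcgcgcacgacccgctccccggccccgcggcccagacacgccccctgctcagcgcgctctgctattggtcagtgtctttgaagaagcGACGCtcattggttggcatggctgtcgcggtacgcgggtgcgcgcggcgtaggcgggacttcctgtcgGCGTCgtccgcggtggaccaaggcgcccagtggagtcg
Dll4: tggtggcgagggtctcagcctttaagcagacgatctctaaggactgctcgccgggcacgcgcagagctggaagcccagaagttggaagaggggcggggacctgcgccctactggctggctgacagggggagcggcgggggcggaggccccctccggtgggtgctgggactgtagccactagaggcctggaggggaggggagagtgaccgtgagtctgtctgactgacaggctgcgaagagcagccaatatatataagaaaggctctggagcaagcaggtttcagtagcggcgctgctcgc
The letters occur 2 times in each of the printed Psmb11 and Ccl25 windows and 0 times in that of Dll4. The window of the downstream start of Ccl25, which is not printed, also holds them 0 times. Promoters were found for 9 of the 10 genes, in 10 windows since Ccl25 has a pair of starts. Of the 10 windows, 5 (50%) held the letters on either strand, namely those of Psmb11, the upstream start of Ccl25, Cxcl12, Krt5 and Aire, against 27.2% of 32851 windows of the same length in the table. A match is a description of the letters and not a binding site, and the windows without a match say nothing about FOXN1 at these genes.

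Library totals lay between 12473857 and 18864327 reads on genes, and levels are given as CPM, counts scaled to a common library size after TMM normalization. The genotype labels were checked first: Dnmt1 had 400.0 to 487 CPM in Ctrl mice but no more than 244 CPM in those with CD4-CRE, and Alk, which reads of the transgene reach, was at 34.9 to 55.0 CPM in ALK and ALKKO and at most 0.431 CPM elsewhere. T cell genes were abundant in the thymus libraries, as the labels say, with Cd4 at 578 to 1409 CPM and Cd8a at 778 to 2256 CPM. Epithelial genes were abundant too, with Prss16 alone at 549 to 1097 CPM in 8 of the 9 thymus libraries, so RNA of epithelial cells was present in libraries labelled as thymocytes. The study's results name thymocytes, but its methods describe RNA taken from homogenized tumor and thymus tissue.

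A pair of libraries stood apart. KO2 had 7179 CPM over 12 B cell genes, 5.94 times the Ctrl mean, against 972 to 2718 CPM in the other thymus libraries, and 4894 CPM over 16 thymocyte genes, against 10648 to 14196 CPM. KO3 had 5392 CPM over 12 heart and skeletal muscle genes, against 9.90 to 29.5 CPM in the other thymus libraries. Calls in comparisons that include KO are therefore also given without KO2.

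Relative to length, Prss16 was the most abundant of the 10 genes in Ctrl thymus, at 234 RPKM (CPM divided by the exon length in kilobases). Krt8 followed at 119, Krt5 at 85.5, Ccl25 at 64.2, Cxcl12 at 36.4, Psmb11 at 24.3, Epcam at 22.0, Foxn1 at 7.15, Aire at 5.47 and Dll4 at 2.97 RPKM in the mean over 3 mice. Psmb11 and Epcam, with an SD of 2.57 RPKM for Psmb11, and Foxn1 and Aire, with an SD of 4.27 RPKM for Foxn1, lay closer together than these SDs, and the other neighbours in this order lay further apart than either SD.

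**Figure D1:**
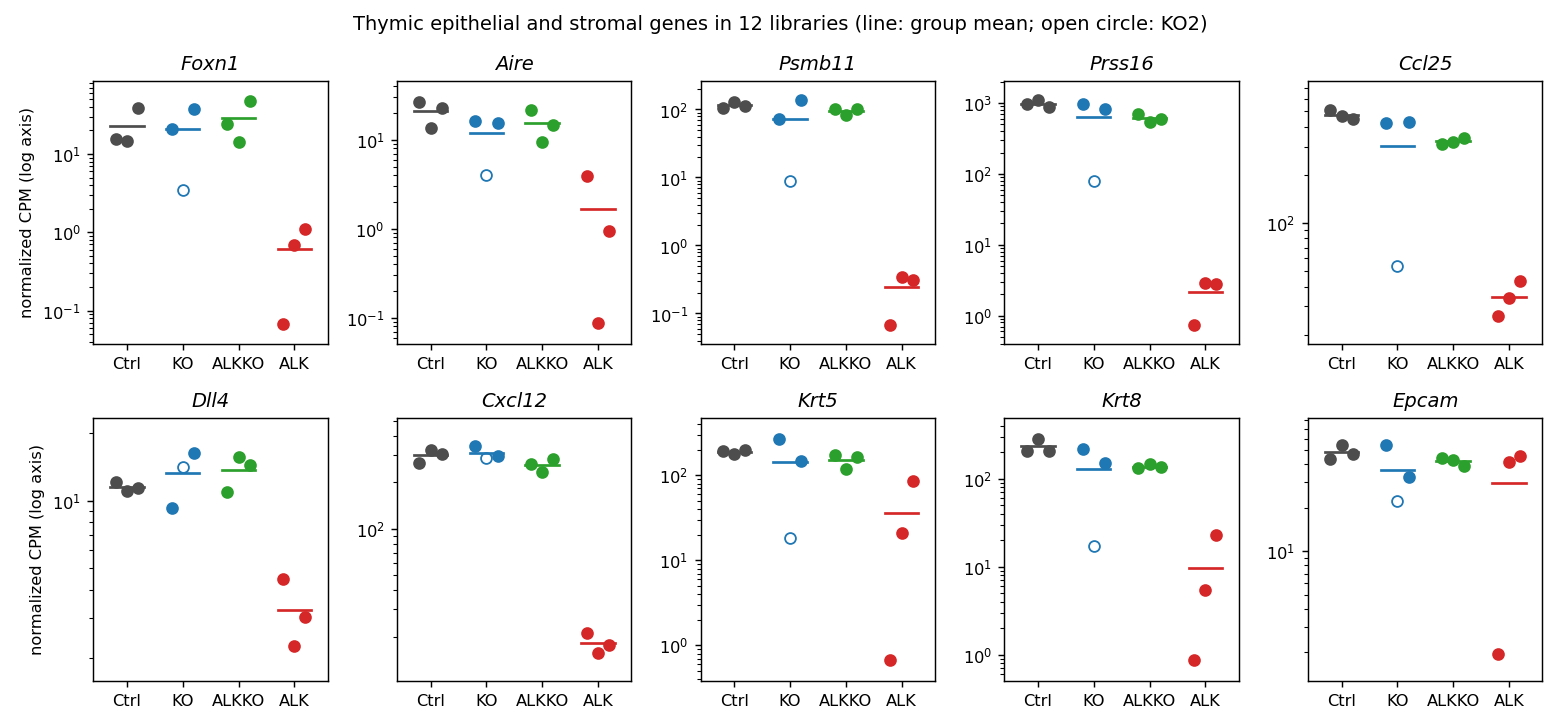
Normalized CPM of the 10 genes on log axes, 1 panel per gene, with 1 point per library and a line at the mean of each group of 3 mice. ALK lies below every Ctrl and ALKKO library in 9 panels, and KO2 (open circle) lies far below the other KO libraries in most of them but not for Dll4 and Cxcl12.

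For the comparison of tumors with control thymus, edgeR's quasi-likelihood test was fitted on all 16052 genes with enough reads, and calls needed both an adjusted p below 0.05 and a change of more than 2-fold. Under this rule 8 of the 10 genes were lower in ALK and 0 higher, beside 12% of all genes tested that were called lower, 8.41% called higher and 20.4% called in either direction. The median log2 fold change of the 10 genes was -3.91, and that of all genes tested 0.05. In 9 of the 10 genes the ALK libraries lay below all Ctrl libraries, as did 25.1% of all genes. The 8 called genes were also lower in ALK than in ALKKO thymi, beside 12.6% of all genes called lower there, 7.03% higher and 19.6% in either direction, and 9 of the 10 lay below all ALKKO libraries, as did 23.7% of all genes. Against ALKKO, the call of Aire was lost with only the compared groups in the fit (adjusted p = 0.0941 by edgeR) and without ALK3, ALKKO1 or ALKKO3 (adjusted p = 0.0668, 0.0796 and 0.0611 by edgeR). That of Krt8 was lost with no low-count filter (adjusted p = 0.0539 by edgeR) and without ALK2 (adjusted p = 0.0713 by edgeR). ALK is the shared group of these 2 comparisons, so the second is not independent of the first. For groups of 3 mice, the exact two-sided permutation test has a smallest possible p of 0.1, which was reached by each of the 9 genes that did not overlap between ALK and Ctrl.

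Foxn1, the epithelial master regulator, lies on chromosome 11 (GRCm38, 78357577 to 78386558, minus strand). It was at 15.5, 14.6 and 38.8 CPM in Ctrl1 to Ctrl3, at 24.2, 14.2 and 47.5 CPM in ALKKO1 to ALKKO3 and at 21.0, 3.44 and 37.5 CPM in KO1 to KO3. In ALK1 to ALK3 it was at 0.0672, 0.698 and 1.09 CPM, which are 1, 8 and 14 reads. All tumors lay below all other libraries, and within the thymus groups replicate 3 was the highest each time. Foxn1 fell by 5.22 on the log2 scale in ALK against Ctrl (SE 1.05, adjusted p = 0.0054 by edgeR's quasi-likelihood test), which leaves 2.70% of the Ctrl mean.

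Aire, which drives the expression of tissue-restricted antigens in medullary epithelium, lies on chromosome 10 (78030022 to 78043610, minus strand). It was at 26.5, 13.6 and 22.8 CPM in Ctrl, 16.2, 4.05 and 15.4 CPM in KO and 21.9, 9.57 and 14.6 CPM in ALKKO. The tumors were spread over a wide range, with 3.96 CPM in ALK1, 0.0873 CPM in ALK2 and 0.938 CPM in ALK3. ALK1 had the most Aire of the tumors and the least Foxn1, Krt5, Krt8 and Epcam. All tumors lay below all Ctrl and ALKKO libraries, and Aire fell by 3.62 on the log2 scale in ALK against Ctrl (SE 0.95, adjusted p = 0.0174 by the same edgeR test). This call was lost with only Ctrl and ALK in the fit (adjusted p = 0.0537 by edgeR) or without Ctrl1 (adjusted p = 0.0524 by edgeR). Dnmt3l overlaps Aire on the opposite strand and was at 1.22 CPM or less in every library.

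Psmb11 encodes the catalytic subunit of the thymoproteasome, which in cortical epithelium makes the peptides for positive selection of CD8 T cells, and lies on chromosome 14 (54621433 to 54629556, plus strand). It was at 106, 129.9 and 113 CPM in Ctrl, 72.7, 8.96 and 138 CPM in KO and 103, 83.3 and 103 CPM in ALKKO. ALK1 to ALK3 had 0.0672, 0.349 and 0.313 CPM, from 1, 4 and 4 reads. In ALK against Ctrl, Psmb11 fell by 8.92 on the log2 scale, the most of the 10 genes (SE 1.03, adjusted p = 0.00047 by edgeR's quasi-likelihood test), a fold that rests on 9 reads over the tumors.

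Prss16, a thymus-specific serine protease that shapes the peptides shown to CD4 T cells, lies on chromosome 13 (22002173 to 22009742, minus strand). It was at 968, 1097 and 878 CPM in Ctrl, 973, 80.1 and 833 CPM in KO and 700.3, 549 and 599 CPM in ALKKO. In the tumors 0.739, 2.88 and 2.82 CPM were left. Prss16 fell by 8.85 on the log2 scale in ALK against Ctrl (SE 0.97, adjusted p = 0.000412 by the same edgeR test). It fell by about as much as Psmb11, and the ratio of Prss16 to Psmb11 reads was 8.89 over the 3 tumors together (95% interval 4.46 to 20.1, counting error only). In the 9 thymus libraries this ratio ranged from 5.84 to 13.4.

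Ccl25, the chemokine that attracts CCR9-bearing thymocytes, lies on chromosome 8 (4325210 to 4360020, plus strand). It was at 514, 471 and 449 CPM in Ctrl, 425, 53.8 and 427 CPM in KO and 314, 323 and 343 CPM in ALKKO. The tumors kept 26.3, 34.0 and 43.2 CPM, all below the thymus libraries. Ccl25 fell by 3.79 on the log2 scale (SE 0.61, adjusted p = 0.00205 by edgeR), which is far less than Psmb11: there were 148 Ccl25 reads for each Psmb11 read over the 3 tumors (95% interval 77.8 to 325, counting error only), against 3.05 to 6.01 in the 9 thymus libraries. Elavl1, a widely expressed gene, overlaps Ccl25 on the opposite strand and was at 116 to 212 CPM in the tumors and 111 to 164 CPM in the thymus libraries. The strand setting of the counting is not given in the sources used here, so the part of the remaining Ccl25 reads that belongs to the overlap cannot be told apart.

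Cxcl12, a chemokine made by cortical epithelium and by mesenchymal cells, lies on chromosome 6 (117168535 to 117181367, plus strand). Ctrl had 266, 324 and 303 CPM, KO 343.6, 286 and 294 CPM and ALKKO 261, 233 and 280.4 CPM. The tumors had 21.2, 15.7 and 17.8 CPM, so the 9 thymus libraries lay close together and the tumors formed a tight group below them. Cxcl12 fell by 4.03 on the log2 scale, with the smallest error of the 10 genes (SE 0.16, adjusted p = 1.58e-06 by edgeR's quasi-likelihood test).

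Dll4, the ligand through which epithelium activates NOTCH1 in early thymocytes and which endothelium also makes, lies on chromosome 2 (119325784 to 119335962, plus strand). It was at 12.05, 10.99 and 11.3 CPM in Ctrl, 9.22, 14.1 and 16.2 CPM in KO and 10.9, 15.7 and 14.4 CPM in ALKKO. With 4.50, 2.27 and 3.05 CPM the tumors lay below all thymus libraries but kept 28.6% of the Ctrl mean. Dll4 fell by 1.80 on the log2 scale, the least of the called genes (SE 0.33, adjusted p = 0.00345 by the same edgeR test). Gm14207, which overlaps Dll4 on the opposite strand, also was lower, with 5.23 to 5.87 CPM in each Ctrl library and at most 0.0873 CPM in a tumor (log2 fold change -6.05, adjusted p = 2.87e-05 by edgeR).

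Krt8, a keratin of simple epithelium that marks the cortex, lies on chromosome 15 (101996698 to 102004482, minus strand). It was at 206, 286 and 209.6 CPM in Ctrl, 219.6, 17.3 and 152 CPM in KO and 132, 146 and 136 CPM in ALKKO. The tumors had 0.873, 5.41 and 23.0 CPM. ALK3 was just above KO2, and all tumors were below the remaining thymus libraries. Krt8 fell by 4.58 on the log2 scale in ALK against Ctrl (SE 1.07, adjusted p = 0.0108 by edgeR).

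Krt5, the basal keratin of medullary epithelium, also lies on chromosome 15 (101707070 to 101712898, minus strand). It was at 191, 176 and 197 CPM in Ctrl, 271, 18.2 and 146 CPM in KO and 172, 118 and 162 CPM in ALKKO. The tumors had 0.672, 21.1 and 86.0 CPM, all below Ctrl and ALKKO, and ranged from 0.358% to 45.8% of the Ctrl mean. Krt5 was not called (log2 fold change -2.39, 95% interval -4.99 to 0.22, adjusted p = 0.149 by edgeR), and was called without ALK3, at a log2 fold change of -4.13 (adjusted p = 0.0384 by edgeR).

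Epcam, an adhesion molecule of epithelial cells at large, lies on chromosome 17 (87635979 to 87651129, plus strand). It was at 43.6, 54.0 and 47.1 CPM in Ctrl, 54.4, 22.4 and 32.8 CPM in KO and 44.1, 42.9 and 38.6 CPM in ALKKO. ALK1 had 1.95 CPM, but ALK2 and ALK3 had 41.1 and 45.3 CPM, within the range of the thymus libraries. The groups overlapped, and Epcam was not called (log2 fold change -0.71, 95% interval -2.38 to 0.95, adjusted p = 0.502 by edgeR).

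**Figure D2:**
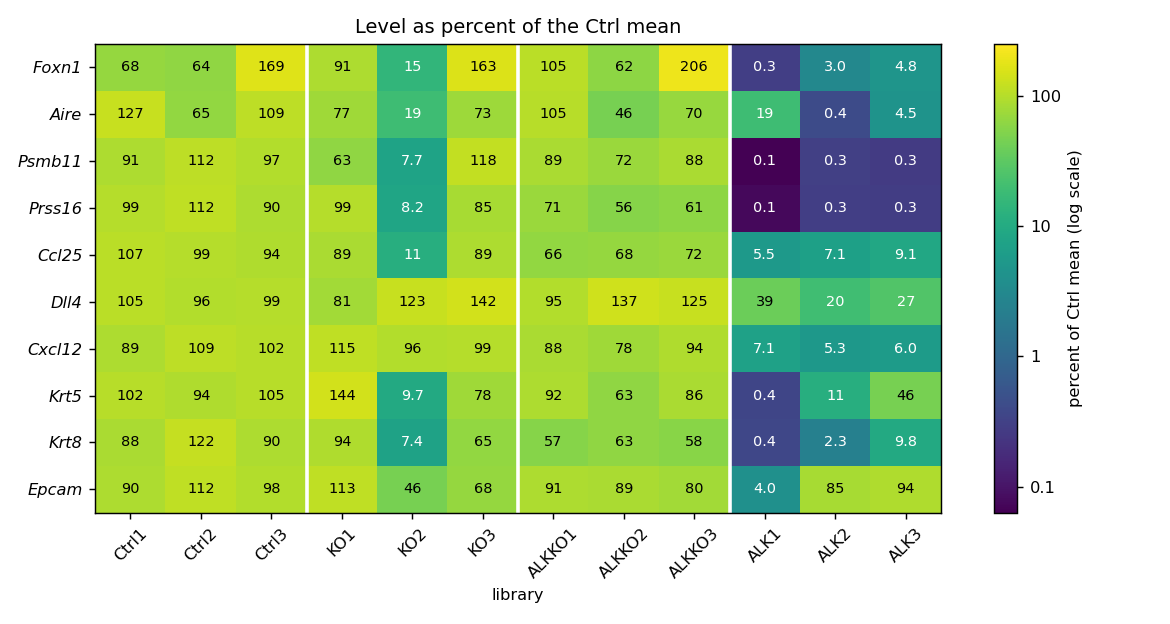
Level of each gene in each of the 12 libraries as percent of the mean of the 3 Ctrl libraries, on a log color scale with the percent printed in each cell. Psmb11 and Prss16 are under 1% in all 3 tumors, Epcam is at 85.3% and 93.9% in ALK2 and ALK3, and KO2 is low for 7 of the genes at 7.41% to 19.3%, at 46.4% for Epcam, and near or above Ctrl for Cxcl12 and Dll4.

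The 3 tumors thus differed in which epithelial transcripts were left. ALK1 had 60.3 CPM over the 10 genes, ALK2 124 CPM and ALK3 223 CPM, against 1535 to 2577 CPM in the thymus libraries other than KO2. In ALK2 and ALK3 there were 3.90 and 3.74 Krt5 reads for each Krt8 read, against 0.617 to 1.31 in the 9 thymus libraries, and in ALK1 both keratins had 13 reads or fewer. Krt14, the keratin that pairs with Krt5 and was picked after its values were seen, had the same order, with 0.672, 11.96 and 84.3 CPM in the tumors and 31.4 to 39.5 CPM in Ctrl. Keratin-bearing epithelium is not particular to the thymus, and which epithelium gave these reads was not tested.

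Lists of marker genes that exclude the 10 genes placed them beside other cells of the organ. For all lists, the share to compare is that of all genes tested, 12% called lower and 8.41% higher in ALK against Ctrl. Of 14 further cortical epithelial genes, 12 were lower in ALK than in Ctrl and 1 higher, with a median log2 fold change of -3.41. Tbata, a cortical epithelial gene, was at 617 to 728 CPM in Ctrl thymi and at most 1.80 CPM in the tumors (log2 fold change -8.98, adjusted p = 0.000358 by edgeR), and Enpep, an aminopeptidase of cortical epithelium, fell by 5.67 on the log2 scale (adjusted p = 0.000286 by edgeR). The gene that rose was Eya1, a transcription cofactor of early thymus development, at 461 and 379 CPM in ALK2 and ALK3 but 0.134 CPM in ALK1 and 6.11 to 12.4 CPM in Ctrl (adjusted p = 0.0336 by edgeR).

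Of 17 further medullary genes, 7 were lower in ALK, 0 higher, with a median of -2.01. Fezf2, the regulator of a second set of tissue-restricted antigens, had 2 reads over the 3 tumors. Scaled by library totals without TMM, these are 0.528% of its Ctrl level (95% interval 0.0638% to 1.92%, counting error only). Spink5, a protease inhibitor of keratinizing epithelium, fell by 5.06 on the log2 scale (adjusted p = 0.00731 by edgeR). Of 5 tested genes of tuft-like epithelium 2 were lower. The channel gene Trpm5 had 1 read over the tumors, or 0.83% of Ctrl (0.0209% to 4.69%) with the same scaling. Avil was at a log2 fold change of -3.66 (adjusted p = 0.011 by edgeR).

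Not every non-lymphoid list fell in the tumors. Of 20 mesenchymal and fibroblast genes 5 were higher and 1 lower in ALK. The collagen gene Col1a1 ranged from 243 to 702 CPM among the tumors and from 14.2 to 28.6 CPM among Ctrl thymi (log2 fold change 4.26, adjusted p = 0.00657 by edgeR). Of the fibroblast growth factors that nourish thymic epithelium, Fgf10 fell by 3.95 on the log2 scale (adjusted p = 0.0126 by edgeR), and Fgf7 rose by 3.38 (adjusted p = 0.0436 by edgeR) with 11.4 CPM in ALK3 alone and 0.403 and 1.75 CPM in the others. Of the 14 endothelial genes tested 0 were called by edgeR, and 0 had an unadjusted p under 0.05.

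Blood and fat cell lists fell in part. Of 15 dendritic cell and macrophage genes 4 were lower. These were led by the genes of cross-presenting dendritic cells Xcr1 and Batf3, at log2 fold changes of -3.12 and -2.85 (adjusted p = 0.0058 and 0.0133 by edgeR). Flt3 was at -2.60 (adjusted p = 0.0352 by edgeR). The median of this list was -0.17, and its macrophage genes had ALK means from 88.8% of Ctrl for Mpeg1 to 128% for Mertk. These means hide a spread, with ALK3 the highest tumor for each macrophage gene. In ALK1 to ALK3, Mpeg1 was at 51.1%, 61.7% and 154% of the Ctrl mean and Mertk at 68.6%, 98.5% and 217%. Of 12 B cell genes 4 were lower, among them Fcer2a, Blk and Ighm, at -5.19, -5.04 and -4.04 on the log2 scale. Of 15 thymocyte genes tested 6 were lower, with Cd8b1, Cd4 and Cd8a at -6.31, -4.50 and -3.65. Not all genes of this list fell: the ALK mean of Dntt was at 97.8% of Ctrl. That of Ptcra was at 420%, from 68.3% in ALK3 to 892% in ALK1. Of 10 adipocyte genes 6 were lower, with Plin1, Cidec and Retn at -5.72, -5.60 and -5.56, although this list varied from 141 to 2925 CPM among the thymus libraries. Of 9 muscle genes tested 1 was lower, Acta1 at -2.80, which is near the 12% of all genes tested. The part of a change of cell mixture in the falls of the 10 genes was not tested.

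**Figure D3:**
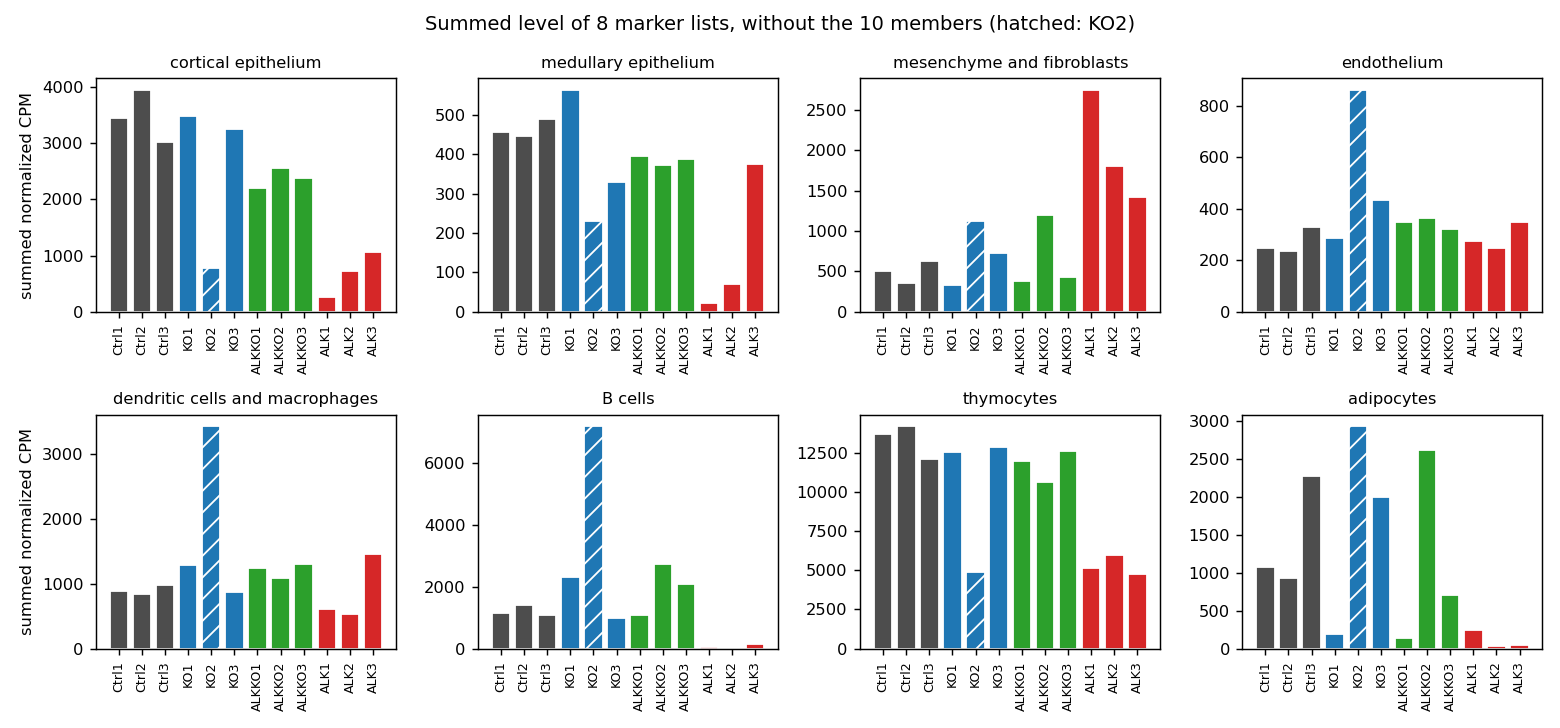
Summed normalized CPM of 8 marker lists that exclude the 10 genes, 1 bar per library, with axes from 0. Cortical epithelial sums reach 1073 CPM at most in ALK, of which Eya1 is 379 CPM, while those of Ctrl start at 3017 CPM, mesenchymal sums are 1425 to 2749 CPM in ALK, and KO2 (hatched) is low in epithelial and thymocyte lists and high in B cell, dendritic cell and endothelial lists.

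The receptors of the ligands and the Notch target genes did not all move in 1 direction. Ccr9, the receptor for Ccl25, was at 907, 715 and 851 CPM in Ctrl, 723, 704 and 771 CPM in ALKKO and 6.92, 2.18 and 70.9 CPM in ALK, and fell by 4.95 on the log2 scale (SE 1.06, adjusted p = 0.00703 by edgeR). Ackr4, a scavenger receptor for Ccl25, fell by 6.19 (adjusted p = 9.3e-05 by edgeR), and had 13.8 to 16.8 CPM in the Ctrl thymi but at most 0.391 CPM in a tumor. For Cxcl12, Cxcr4 ranged from 397 to 470.1 CPM among Ctrl thymi and from 228 to 272 CPM among tumors, without overlap and under 2-fold (log2 fold change -0.85, adjusted p = 0.00177 by edgeR), and Ackr3 was not called (-2.37, adjusted p = 0.125 by edgeR).

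On the Notch side the ligand gene fell and receptor and target genes rose. Notch1 was at 225, 218 and 233 CPM in Ctrl and 4087, 1994 and 1084 CPM in ALK (log2 fold change 3.41, SE 0.41, adjusted p = 0.000553 by edgeR). Notch3 rose by 1.81 (adjusted p = 0.0434 by edgeR) with overlap, since ALK2 had 77.1 CPM and Ctrl up to 80.3 CPM, and Notch2 was not called (0.17, adjusted p = 0.747 by edgeR). The Notch target genes Hes1, Dtx1 and Nrarp rose by 1.47, 3.42 and 3.82 on the log2 scale (adjusted p = 0.0178, 0.0124 and 0.0037 by edgeR). In all, 5 of these 10 receptor and target genes rose and 2 fell in ALK against Ctrl, beside 8.41% and 12% of all genes tested. In ALK against ALKKO 4 rose and 2 fell, beside 7.03% and 12.6%.

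**Figure D4:**
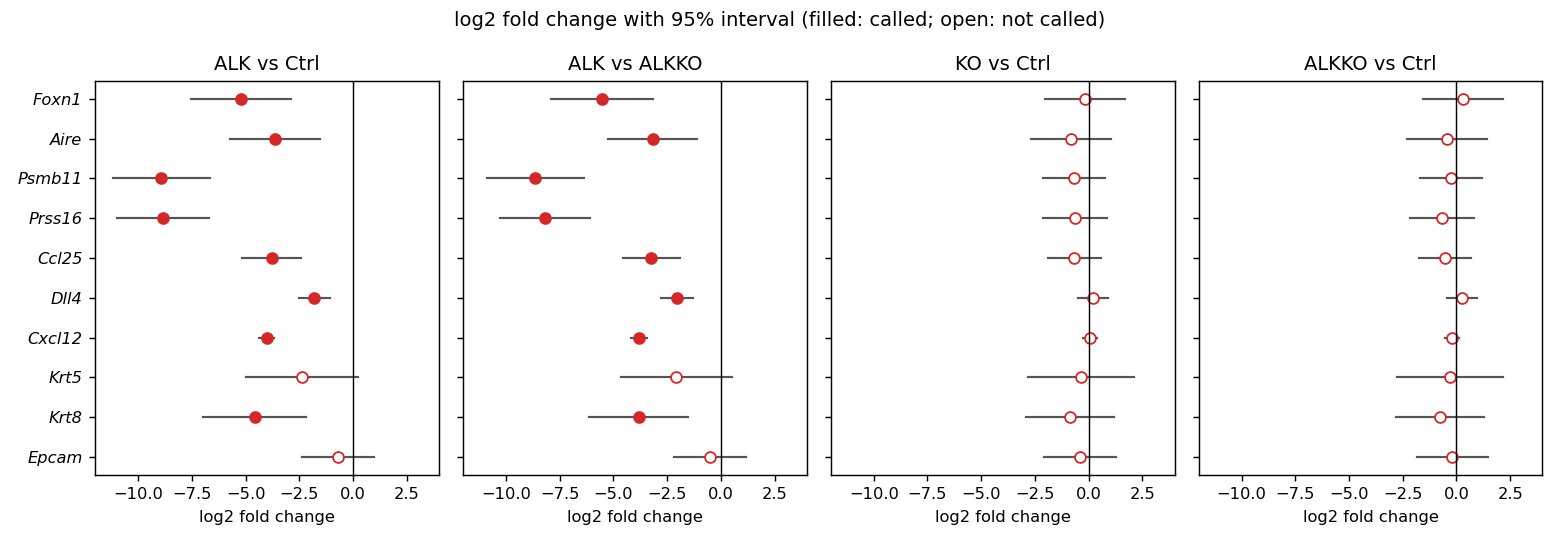
log2 fold changes of the 10 genes with 95% intervals in 4 comparisons, on the same axis, with filled points for called genes. In both comparisons of ALK 8 points are filled, from -8.92 to -1.80 against Ctrl and from -8.65 to -2.05 against ALKKO, and no point is filled for KO or ALKKO against Ctrl.

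NPM-ALK thymi with Dnmt1 deleted in T cells held the stromal transcripts, at a somewhat lower level for some. In ALKKO against Ctrl 0 of the 10 genes were called by edgeR, beside 0.181% of all genes, and 0 had an unadjusted p under 0.05, with log2 fold changes from -0.76 to 0.32. DESeq2's Wald test called 0 as well. Intervals such as -2.80 to 1.28 for Krt8 leave room for changes of more than 2-fold in either direction, while that of Cxcl12 was -0.53 to 0.11. In 5 of the 10 genes, all 5 lower, the ALKKO libraries lay below all Ctrl libraries, as did 7.56% of all genes tested, with 9.92% above: Psmb11, Prss16, Ccl25, Krt5 and Krt8. Prss16 was at 62.8%, Krt8 at 59.2% and Ccl25 at 68.4% of the Ctrl mean. Foxn1 and Dll4 were at 124% and 119%, with overlap. The error of these estimates depended on which libraries entered the fit: the SE of Ccl25 was 0.548 with all 12 libraries, 0.162 without KO2 and 0.0849 with only Ctrl and ALKKO. In the fit of only Ctrl and ALKKO, Ccl25 had an adjusted p of 0.0389 by edgeR at a log2 fold change of -0.55, under 2-fold and so not called (adjusted p = 0.584 by edgeR without KO2), and Krt8 and Prss16 had adjusted p of 0.0605 and 0.0649 by edgeR. Of the 141 list genes tested 0 were called in ALKKO against Ctrl by edgeR, and 3 had an unadjusted p under 0.05.

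Deletion of Dnmt1 alone called 0 of the 10 genes in KO against Ctrl, beside 0.0187% of all genes, and 0 had an unadjusted p under 0.05, as against 886 of all genes tested. DESeq2's Wald test also called 0, and so did edgeR without KO2. The log2 fold changes ran from -0.85 to 0.20, with intervals such as -2.89 to 1.19 for Krt8 that leave room for changes of more than 2-fold in either direction. Ccl25 was the 1 gene of the 10 that did not overlap, with KO below Ctrl, a pattern shown by 6.24% of all genes. The interval of Cxcl12 was the narrowest, at -0.27 to 0.37. Without KO2 the means of KO were 29.3 CPM for Foxn1, 105 CPM for Psmb11, 903 CPM for Prss16 and 426 CPM for Ccl25, and the log2 fold changes of Foxn1 and Krt5 turned to 0.35 and 0.15.

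Within KO2 the 10 genes split. Psmb11 was at 7.70% of the Ctrl mean, Krt8 at 7.41%, Prss16 at 8.16%, Krt5 at 9.68%, Ccl25 at 11.3%, Foxn1 at 15.0% and Aire at 19.3%. Epcam was at 46.4%, while Cxcl12 was at 96.1% and Dll4 at 123%. In this library the mesenchymal marker list was at 225% of its Ctrl mean, below ALKKO2 with 1194 CPM against 1122 CPM, and the endothelial list was at 319%, and their part in these values was not tested. The ratio of Prss16 to Psmb11 reads in KO2 was 8.94 and that of Ccl25 to Psmb11 was 6.01, so these genes were lower in similar proportion. Cxcl12 did not fall with them, at 31.9 reads for each Psmb11 read. Summed over the 14 further cortical genes, KO2 was at 22.4% of the Ctrl mean. Kitl and Cd83 were above their Ctrl means, at 205% and 192%, and the others ran from 6.62% for Krt18 to 56.4% for Fgfr2. KO2 was the only library of a female, and sex and cell mixture cannot be told apart in it.

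In ALKKO against KO 0 of the 10 genes were called by edgeR, beside 0.00623% of all genes, with 0 at an unadjusted p under 0.05 and 0 by DESeq2. Cxcl12 alone of the 10 did not overlap, in a direction that 2.24% of all genes shared while 4.09% lay apart the other way, at 233 to 280.4 CPM in ALKKO and 286 to 343.6 CPM in KO (log2 fold change -0.26, 95% interval -0.58 to 0.06). Without KO2, 0 of the 10 were called, and the log2 fold changes ran from -0.55 for Prss16 to 0.099 for Dll4.

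The difference between NPM-ALK and other mice was then compared between the mice with and without CD4-CRE. It was taken as the ALKKO to KO difference minus the ALK to Ctrl difference. This interaction was called for 6 of the 10 genes, namely Psmb11, Prss16, Foxn1, Ccl25, Cxcl12 and Dll4. In all 6 the ALKKO to KO difference lay above the ALK to Ctrl difference. Of all genes, 5.62% were called in that direction, 3.31% in the other and 8.93% in either. Krt8 and Aire had estimates of 4.68 and 3.99 on the log2 scale that did not pass (adjusted p = 0.055 and 0.0673 by edgeR), and Krt5 and Epcam had 2.44 and 0.91 (adjusted p = 0.353 and 0.621 by edgeR). Leaving out any 1 of Ctrl1, Ctrl2, Ctrl3, KO1, ALK2, ALKKO1, ALKKO2 or ALKKO3 lost the call of Dll4 (adjusted p up to 0.0849 by edgeR). That of Foxn1 was lost without any 1 of Ctrl1, Ctrl3, ALK2, ALKKO1 or ALKKO3 (adjusted p up to 0.0674 by edgeR). The ALK mice had no floxed Dnmt1 allele in their labels and gave tumors, while ALKKO mice gave thymus samples. Deletion of Dnmt1 and absence of a tumor therefore cannot be told apart here.

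Across the 9 thymus libraries the 10 genes varied together less once KO2 was left out. The median Pearson r over the 45 pairs of genes was 0.74 on the log2(CPM + 1) scale with KO2 and 0.25 over the 8 libraries without it. The nearest neighbours of each gene over the 9 libraries were picked by the highest r. For Krt8 they were Krt18, its partner in keratin filaments (r = 0.998, and 0.988 without KO2), and Casp2. Foxn1 was most like B3galt5 (0.98, and 0.957 without KO2) and Slc13a2os. Tbata was among those of Ccl25 (0.990, and 0.828 without KO2), with Apba2, and Fezf2 among those of Aire, with Urah.

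The other neighbours were Anp32e and Cdkn2c for Psmb11, Zfp629 and Satb1 for Prss16, Skint10 and Eya2 for Krt5, and Prpf4b and Papolg for Epcam, at r from 0.972 to 0.995. Those of Dll4 were Slc43a3 and Hbb-bt, and those of Cxcl12 were Fam114a2 and Ddx10, at r from 0.895 to 0.953 over 9 libraries. Without KO2 the r of the genes with their neighbours lay between 0.828 and 0.988. The 9 points share cell mixtures and depths of the libraries, and these values are a description only.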

How the data were processed

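The labels gave the groups, replicate numbers, ages and sexes of 12 mice. Per the study's methods and the submitters' processing notes, the authors made stranded poly(A) libraries, trimmed and aligned single-end reads (STAR, mm10) and deposited 1 HTSeq table per library with the unnormalized count of each gene. Versions of these tools and the strand setting are not given in the sources used here. Of 50600 gene IDs, 50376 were matched to GENCODE M21 (GRCm38). Library totals were 12473857 to 18864327 counts, and 3 counts equal 0.159 to 0.24 CPM. Intervals of read ratios cover counting error only.

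edgeR 4.0.16 (R 4.3.3) was used with TMM, filterByExpr, 1 term per group over all 12 libraries, robust glmQLFit and glmQLFTest, and Benjamini-Hochberg adjustment over 16052 genes. Calls needed adjusted p below 0.05 with more than a 2-fold change. Libraries within a group were not duplicates, with chi-square values of 13.5 to 207 for each degree of freedom. The test was tried on simulated data. DESeq2 1.42.0, other filters, a replicate block, age as a covariate, smaller fits and each library left out were alternatives.

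The genes and lists were chosen with earlier results of these data known. Named were the 10 genes, Dnmt1, Alk, all receptor and target genes, up to 3 called genes per other list with the largest changes in ALK against Ctrl and at least 1 CPM, and the 2 genes most like each of the 10. Overlapping genes of the opposite strand were added, and Krt14, Kitl, Cd83, Fgfr2, Mpeg1, Mertk, Dntt and Ptcra after their values were seen. A list gene that the rule names is not reported here.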

Additional observations from a re-analysis of the deposited data

Results flagged for a closer look

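For 6 genes the interaction term of edgeR's quasi-likelihood test was called. The ALK mice gave tumors and the ALKKO mice thymus samples, so deletion of Dnmt1 and absence of a tumor cannot be told apart in it. The ALKKO to KO difference minus the ALK to Ctrl difference was 9.31 on the log2 scale for Psmb11 (SE 1.21, adjusted p = 0.00265 by edgeR) and 8.82 for Prss16 (SE 1.13, adjusted p = 0.00255 by edgeR), both of which had under 1% of the Ctrl mean in every tumor. It was 5.69 for Foxn1 (SE 1.32, adjusted p = 0.0267 by edgeR), 3.90 for Ccl25 (SE 0.80, adjusted p = 0.0167 by edgeR), 3.77 for Cxcl12 (SE 0.21, adjusted p = 2.2e-05 by edgeR) and 1.85 for Dll4 (SE 0.45, adjusted p = 0.0309 by edgeR). Without KO2 the 6 values were 8.82, 8.33, 5.22, 3.44, 3.75 and 1.93 in the same order, each called.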

How the results depend on the processing

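In ALK against Ctrl 8 of the 10 genes were called under DESeq2's size factors, DESeq2's Wald test, no low-count filter, age as a covariate and no minimum fold change, and 7 with only the compared groups in the fit. A minimum of 10 counts in every library left 7 of the genes to test and called 5, and likewise 5 in ALK against ALKKO. In ALK against ALKKO 7 were called with no low-count filter and with only the compared groups. Leaving out 1 library at a time gave 7 to 9 genes in ALK against Ctrl, 7 to 8 in ALK against ALKKO, 0 in KO against Ctrl, ALKKO against Ctrl and ALKKO against KO, and 4 to 8 for the interaction, which DESeq2's Wald test called for 8 genes, age as a covariate for 7, no filter for 5 and the 10-count minimum for 4. Leaving KO2 out of the comparisons without KO was chosen after seeing the data and gave 8, 8 and 0.

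Same-numbered libraries did not deviate together in every pair (r from -0.143 to 0.445 over 18 pairs, against -0.462 to 0.261 over 36 pairs of other numbers). The ranges overlapped and do not decide whether same-numbered libraries share a block. In the main fit the replicate numbers were not taken as pairs. A fit with the replicate block called 8 genes in ALK against Ctrl, 8 in ALK against ALKKO, 0 in the 3 other comparisons and 6 for the interaction, where Dll4 was lost and Aire gained. Among all genes the block moved the calls in ALKKO against Ctrl from 29 to 5 and in KO against Ctrl from 3 to 0.

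Direction changed only for log2 fold changes that were not called. With the replicate block Prss16 was at 0.092 in ALKKO against KO, and with age Krt5 and Krt8 were at -0.14 and -0.068. With 1 library left out, ALKKO against KO ranged from -0.10 to 1.23 for Foxn1, -0.13 to 1.25 for Psmb11, -0.38 to 0.46 for Ccl25, -0.15 to 0.24 for Dll4, -0.46 to 0.88 for Krt5, -0.42 to 0.71 for Krt8, -0.041 to 0.66 for Aire, -0.056 to 0.61 for Epcam and -0.55 to 0.44 for Prss16. KO against Ctrl ranged from -0.92 to 0.45 for Foxn1, -0.050 to 0.10 for Cxcl12 and -1.21 to 0.15 for Krt5, ALKKO against Ctrl from -0.27 to 0.91 for Foxn1, and ALK against ALKKO from -0.97 to 0.063 for Epcam. The cause was not tested.

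Among all genes, DESeq2 called 42 in KO against Ctrl, 98 in ALKKO against Ctrl, 24 in ALKKO against KO and 2486 for the interaction, against 3, 29, 1 and 1433 by edgeR. Only the compared groups gave 0, 98 and 2049 genes in KO against Ctrl, ALKKO against Ctrl and ALK against ALKKO, the last against 3145. The 10-count minimum gave 1756, 1531, 0, 1, 0 and 667 genes in the order of the comparisons above, and age gave 9 in ALKKO against Ctrl. Leaving out 1 library gave 2130 to 3787 in ALK against Ctrl, 0 to 3 in KO against Ctrl, 5 to 31 in ALKKO against Ctrl and 560 to 2219 for the interaction. Depth limits Psmb11 and Foxn1 in the tumors, at 9 and 23 reads in all.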
